A study of Homo sapiens with 9 samples.

Results

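The genes described here encode the chains of integrins and laminins, and they were followed in A549 cells after knockdown of Cyclin K. The members were the genes in the files whose whole symbol is that of an integrin α chain (ITGA), an integrin β chain (ITGB) or a laminin chain (LAMA, LAMB, LAMC), so symbols alone decided membership. This gave 36 members among 31080 features that carry a reference gene, of which 17 were integrin α genes, 7 were integrin β genes and 12 were laminin genes. A549 is a human lung cancer cell line. The cells were transfected for 48 h with a scrambled siRNA, with siCyclin K#1 or with siCyclin K#2, which target the mRNA of Cyclin K (CCNK) at different sites, and 3 libraries of total RNA were sequenced for each siRNA, 9 in all. The design text calls these independent samples and gives no further detail of the cultures, so p-values measure the spread between these libraries. All cells were of a single line and were studied after transient transfection, and none was left untransfected.

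Integrins are receptors in the cell membrane, each made of an α and a β chain, that bind the extracellular matrix on the outside and the cytoskeleton on the inside. Laminins are secreted trimers of an α, a β and a γ chain and form the network of the basement membrane on which epithelial cells rest. Lung epithelial cells hold on to laminin through integrins that pair ITGA3 or ITGA6 with ITGB1, and through the pair of ITGA6 with ITGB4 in hemidesmosomes. Cyclin K is the partner of the kinases CDK12 and CDK13, which phosphorylate RNA polymerase II during transcription.

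The level of each gene was given as FPKM, fragments per kilobase of the gene and per unit of sequencing depth, so that levels can be compared between genes. The FPKM values moved in steps that corresponded to 31330000 to 33770000 reads per library. CCNK, on chr14:99481169-99535044 (GRCh38, plus strand), was at 6.90, 7.06 and 7.10 FPKM with scrambled siRNA, at 0.891, 0.816 and 0.720 with siCyclin K#1 and at 0.809, 0.920 and 0.802 with siCyclin K#2. The mean thus fell to 11.5% and 12.03% of the scrambled level, and all 6 knockdown libraries lay below the 3 scrambled ones. The epithelial keratin genes KRT8 and KRT18 stood at mean levels from 55.3 to 97.4 FPKM in every group, whereas EPCAM and KRT19 were at or below 0.178 FPKM. The leukocyte marker PTPRC was at 0.004 FPKM or less in the group means, and the leukocyte markers together summed to between 0.607 and 1.04 FPKM per library, most of it CD14. The endothelial markers summed to at most 0.284 FPKM. The fibroblast markers summed to between 2.29 and 2.71 FPKM in the scrambled libraries, between 15.5 and 17.4 after siCyclin K#1 and between 3.55 and 3.74 after siCyclin K#2, owing to COL1A1 and LUM, while COL1A2 and DCN were at or below 0.079 FPKM.

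A549 cells held the mRNA of most chains that epithelial integrins and laminins are built from. In the scrambled libraries 3 members exceeded 100 FPKM, 8 lay between 20 and 100, 6 between 1 and 20, and 19 below 1. ITGB1, the β chain shared by most matrix-binding integrins, led with 286 ± 17.0 FPKM (SD, n = 3). LAMC1, LAMA5 and LAMB1, which together code for the chains of the main basement membrane laminin of adult epithelia, followed at 134 ± 0.853, 101 ± 3.16 and 85.6 ± 1.12 FPKM. ITGAV at 56.2 ± 1.66 and ITGA3 at 52.4 ± 1.22 FPKM came next, and their values did not overlap in the 3 scrambled libraries. ITGA2 stood at 36.9 ± 0.201, ITGA6 at 28.4 ± 5.44 and ITGB5 at 27.3 ± 0.809 FPKM, and the libraries of ITGA6 overlapped those of ITGB5. The members below 1 FPKM included ITGB2, ITGAM, ITGAX and ITGAL of leukocytes, ITGA2B of platelets and LAMA2, the laminin chain of muscle. In GENCODE 29 the exons of 21 of the 36 members overlap those of another gene, mostly on the other strand. Whether the counting used strand is not stated, and some of the larger overlaps are given beside the members they touch.

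**Figure D1:**
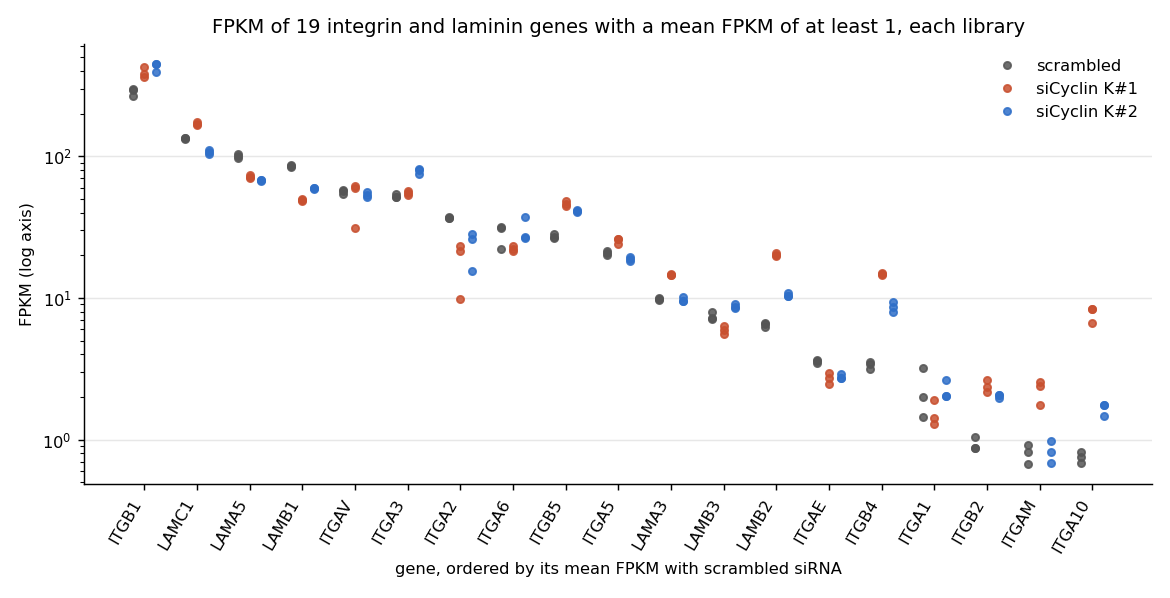
FPKM (log axis) of 19 of the 20 members with a mean of at least 1 FPKM over all libraries, ordered by their level with scrambled siRNA, with 1 point per library. ITGB1 is the highest in all 3 groups, and ITGA10, last in the scrambled libraries, lies between 6.61 and 8.41 FPKM with siCyclin K#1.

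Of the 36 members, 29 reached 0.1 FPKM in at least 3 libraries and were tested with limma on log2(FPKM + 0.1) together with all other such genes, 21048 in all. On this scale the fold change of a gene near 0.1 FPKM is understated. A gene is said to have risen or fallen where its Benjamini-Hochberg adjusted p over all tested genes was under 0.05. With siCyclin K#1, 13 of the 29 members rose (44.8%) and 7 fell (24.1%), against 26.8% and 18.1% of all tested genes. With siCyclin K#2, 9 rose (31.0%) and 8 fell (27.6%), against 19.8% and 15.2% of all tested genes. The shares of all genes are not matched to the members in level. A mean of at least 1 FPKM was found for 20 of the 29 members and for 11243 features, where 21048 were tested. ITGAX and ITGAL reached 0.1 FPKM in the scrambled libraries alone, so they could enter the test only by being high there. Among the other 27 tested members 13 rose and 6 fell with siCyclin K#1, and 9 rose and 6 fell with siCyclin K#2. These 27 include ITGA4, ITGA2B and ITGB7, which reached 0.1 FPKM in libraries of the Cyclin K siRNAs alone. They could enter the test only by being high after knockdown, and ITGA4 and ITGA2B are among the 13 rises. The median log2 fold change of the 29 members was 0.16 with siCyclin K#1 and 0.04 with siCyclin K#2, next to 0.10 and 0.01 over all tested genes. Rescaling the libraries by median ratios lowered the siCyclin K#1 median of all genes by 0.10, after which 11 members rose and 8 fell. A fold change over 3 at an unadjusted p under 0.01 was seen in 4 members with siCyclin K#1, namely ITGA10, ITGB4, LAMB2 and ITGAX, the last of them a member that entered the test through the scrambled libraries alone, and such a change was seen in 4.67% of all tested genes. With siCyclin K#2 no member passed that threshold, where 1.94% of all genes did. Limma-voom on the estimated reads gave 2 members past it, ITGAX and ITGAL, and without siCyclin K#2 replicate 2 the count was 1.

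The comparisons with scrambled siRNA share the same 3 scrambled libraries, and their values are therefore given side by side. ITGA10, ITGB1, ITGB2, ITGB4, ITGB5 and LAMB2 rose with each siRNA, and ITGAE, LAMA5 and LAMB1 fell with each. ITGA5 and LAMC1 rose with siCyclin K#1 and fell with siCyclin K#2, and LAMB3 fell with siCyclin K#1 and rose with siCyclin K#2.

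**Figure D2:**
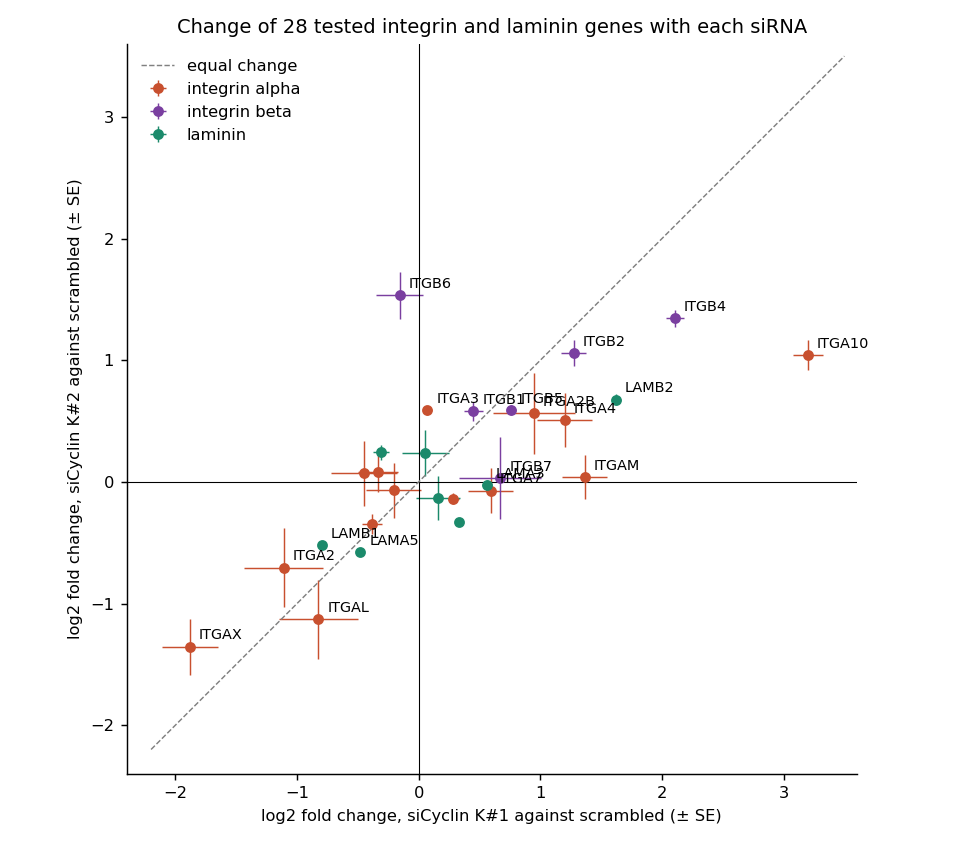
Log2 fold change against scrambled siRNA of 28 of the 29 tested members with siCyclin K#1 (x axis) and siCyclin K#2 (y axis), with bars for the SE and a dashed line for equal change; members past 0.45 on either axis are labelled. ITGA10 lies farthest right at 3.20, and ITGB6 stands at 1.53 with siCyclin K#2 and -0.15 with siCyclin K#1.

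The integrin β genes rose or did not pass the test with either siRNA. Of the 6 tested, 4 rose with siCyclin K#1 and 5 with siCyclin K#2, and 0 fell, where 26.8% and 19.8% of all tested genes rose and 18.1% and 15.2% fell. At an unadjusted p under 0.05 limma gave 0 falls as well, and limma-voom gave 0 falls among those it tested. ITGB6 was the only gene of the 6 whose limma log2 fold change was negative, with siCyclin K#1. The summed FPKM of the β genes went from 318 ± 17.3 in scrambled libraries to 456 ± 36.4 after siCyclin K#1 and 482 ± 31.8 after siCyclin K#2, of which ITGB1 made 89.9%, 85.9% and 88.9%. The summed FPKM of the α genes was 203 ± 6.76, 187 ± 16.2 and 213 ± 9.93, and the α sums of each siRNA overlapped those of the scrambled libraries.

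ITGB1 (chr10:32900319-33005792, minus strand, ENSG00000150093) was at 267, 294 and 299 FPKM with scrambled siRNA, at 363, 429 and 382 with siCyclin K#1, and at 393, 444 and 448 with siCyclin K#2. All knockdown libraries lay above all scrambled ones, and the libraries of the siRNAs overlapped. Its log2 fold change was 0.45 ± 0.076 (SE) with siCyclin K#1 (limma adjusted p = 0.0012) and 0.58 ± 0.076 with siCyclin K#2 (limma adjusted p = 0.000389).

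ITGB4 encodes the long-tailed β chain of hemidesmosomes, which ties laminin to keratin filaments, and lies on chr17:75721328-75757818 (ENSG00000132470, plus strand). It was at 3.14, 3.52 and 3.40 FPKM with scrambled siRNA, at 14.4, 15.1 and 14.8 with siCyclin K#1, and at 7.96, 9.43 and 8.68 with siCyclin K#2. The 3 groups did not overlap. The mean was 4.40 times the scrambled mean with siCyclin K#1 (log2 fold change 2.11 ± 0.070, limma adjusted p = 8.57e-08) and 2.59 times with siCyclin K#2 (1.35 ± 0.070, limma adjusted p = 1.96e-06).

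ITGB5, the partner of ITGAV in a receptor for vitronectin, lies on chr3:124761948-124901418 (ENSG00000082781, minus strand). It was at 27.1, 28.2 and 26.7 FPKM with scrambled siRNA, at 44.8, 48.6 and 45.9 with siCyclin K#1, and at 40.3, 42.1 and 41.2 with siCyclin K#2. Every knockdown library was above every scrambled library. The mean was 1.70 and 1.51 times the scrambled mean (log2 fold changes 0.76 ± 0.040 and 0.59 ± 0.040, limma adjusted p = 1.01e-06 and 8.40e-06).

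ITGB2, the β chain of leukocyte integrins (chr21:44885953-44931989, minus strand, ENSG00000160255), was at 0.876, 1.04 and 0.871 FPKM with scrambled siRNA, at 2.65, 2.37 and 2.16 with siCyclin K#1, and at 2.06, 2.08 and 1.98 with siCyclin K#2. It rose with siCyclin K#1 by a log2 fold change of 1.27 ± 0.11 (limma adjusted p = 1.57e-05) and with siCyclin K#2 by 1.06 ± 0.11 (limma adjusted p = 7.97e-05). The exons of ITGB2 share 220 bases with those of ITGB2-AS1 on the other strand in GENCODE 29. If the counting did not use strand, reads of both genes cannot be told apart there.

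ITGB6 encodes a β chain of injured or remodelling epithelium that pairs with ITGAV. Its row joins ITGB6 with AC092153.1 and LINC02478, and the values cover all 3. The row was at 0.339, 0.286 and 0.321 FPKM with scrambled siRNA, at 0.236, 0.234 and 0.361 with siCyclin K#1, and at 1.10, 0.919 and 1.31 with siCyclin K#2. The siCyclin K#2 libraries stood apart from the other 6, and the mean was 3.53 times the scrambled mean (log2 fold change 1.53 ± 0.19, limma adjusted p = 0.000302). With siCyclin K#1 the log2 fold change was -0.15 ± 0.19. ITGB7, a lymphocyte chain, was at or below 0.221 FPKM in all libraries and did not pass the test, and its exons share 409 bases with ZNF740 on the other strand. ITGB8 was at or below 11 reads and was not tested.

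**Figure D3:**
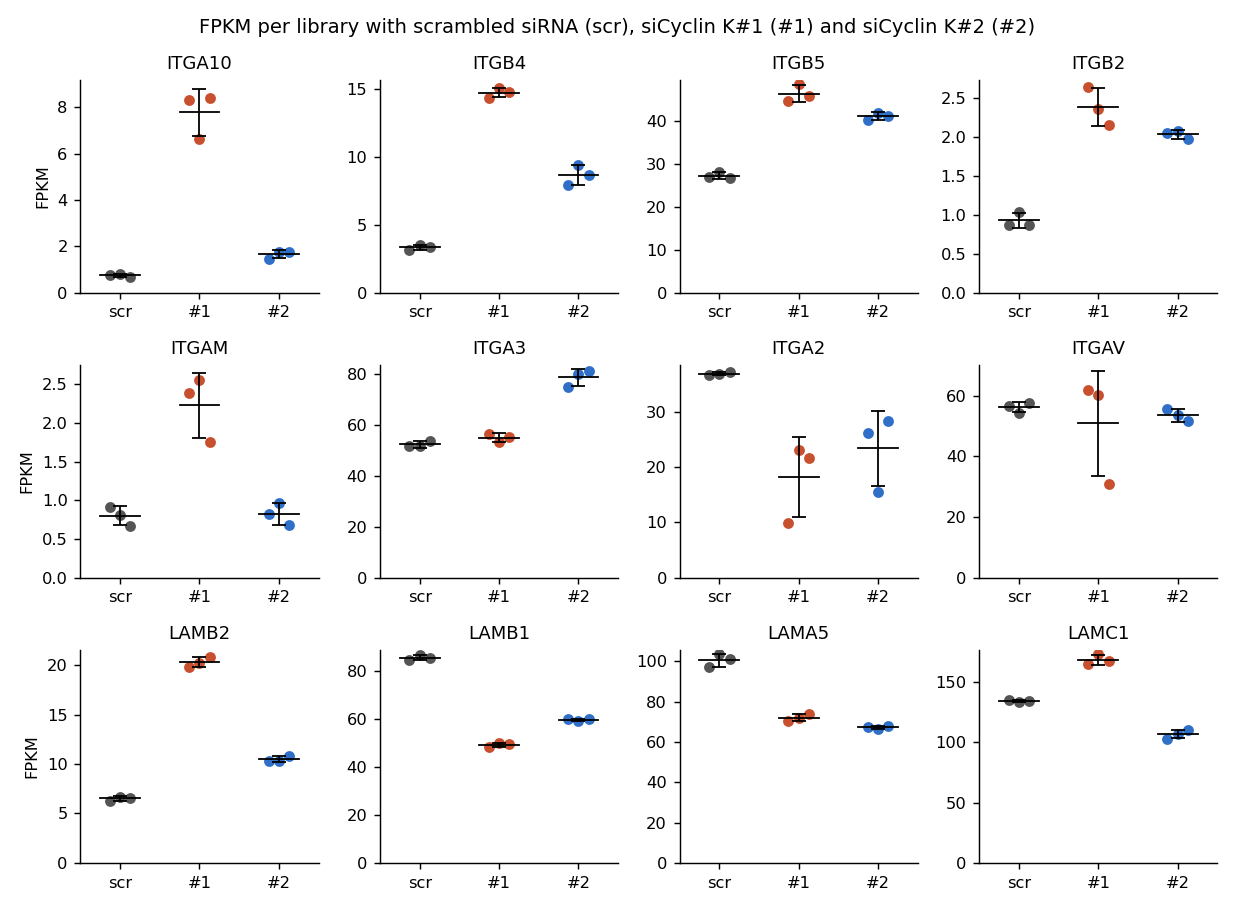
FPKM per library of 12 members (y axes start at 0), with the mean as a horizontal line and the SD as a bar, for scrambled siRNA (scr), siCyclin K#1 (#1) and siCyclin K#2 (#2). ITGB4, LAMB2 and ITGA10 are highest with siCyclin K#1, LAMC1 moves in opposite directions, and single libraries of ITGA2 and ITGAV lie far from the other libraries of their group.

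Among the integrin α genes, 6 of the 14 tested rose and 3 fell with siCyclin K#1, and 2 rose and 4 fell with siCyclin K#2. The falls include ITGAX with each siRNA and ITGAL with siCyclin K#2, which could enter the test only by being high in the scrambled libraries. The rises with siCyclin K#1 include ITGA4 and ITGA2B, which could enter it only by being high after knockdown. The other falls were ITGA2 and ITGAE with siCyclin K#1, and ITGA5 and ITGAE with siCyclin K#2. Of all tested genes 26.8% and 19.8% rose and 18.1% and 15.2% fell. ITGA10, the α chain of a collagen receptor known from cartilage, had the largest log2 fold change of the 29 tested members with siCyclin K#1, on the log2(FPKM + 0.1) scale. It lies on chr1:145891208-145910189 (ENSG00000143127, minus strand) and was at 0.761, 0.814 and 0.688 FPKM with scrambled siRNA, at 8.30, 6.61 and 8.41 with siCyclin K#1, and at 1.46, 1.76 and 1.77 with siCyclin K#2. These values came from 141 to 164, 1310 to 1753 and 296 to 370 reads. The 3 groups did not overlap. The mean was 10.3 times the scrambled mean with siCyclin K#1 (log2 fold change 3.20 ± 0.12, limma adjusted p = 1.75e-07) and 2.20 times with siCyclin K#2 (1.04 ± 0.12, limma adjusted p = 0.00021). Its exons share 105 bases with the antisense gene AC243547.1.

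ITGA3, the α chain of the main laminin receptor of lung epithelium (chr17:50055968-50090481, plus strand, ENSG00000005884), was at 51.7, 51.6 and 53.8 FPKM with scrambled siRNA, at 56.6, 53.2 and 55.3 with siCyclin K#1, and at 75.0, 79.9 and 81.3 with siCyclin K#2. Only the siCyclin K#2 libraries stood apart from the scrambled ones. It rose with siCyclin K#2 by a log2 fold change of 0.59 ± 0.040 (limma adjusted p = 8.37e-06), and the value with siCyclin K#1 was 0.07 ± 0.040. The share of ITGA3 in the summed α FPKM was 25.8% ± 0.524 in scrambled libraries, 29.6% ± 3.04 after siCyclin K#1 and 37.1% ± 2.96 after siCyclin K#2.

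ITGA2, the α chain of an epithelial collagen and laminin receptor (chr5:52989326-53094779, plus strand, ENSG00000164171), was at 36.7, 36.8 and 37.1 FPKM with scrambled siRNA, at 9.88, 23.1 and 21.6 with siCyclin K#1, and at 26.2, 15.6 and 28.2 with siCyclin K#2. All 6 knockdown libraries lay below the scrambled ones, and 1 library of each siRNA lay well below its group. The log2 fold change was -1.11 ± 0.33 with siCyclin K#1 (limma adjusted p = 0.0223) and -0.70 ± 0.33 with siCyclin K#2 (limma adjusted p = 0.137). The fall with siCyclin K#1 missed the threshold when scrambled replicate 1, 2 or 3 was left out, with an adjusted p of up to 0.0556. Without siCyclin K#1 replicate 1, the library at 9.88 FPKM, the value with siCyclin K#2 passed at an adjusted p of 0.0281.

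ITGAV, the α chain of the vitronectin receptors, was at 56.6, 54.3 and 57.6 FPKM with scrambled siRNA, at 61.9, 60.2 and 31.0 with siCyclin K#1, and at 55.7, 53.6 and 51.6 with siCyclin K#2. It passed the test with neither siRNA, and siCyclin K#1 replicate 3 lay at 31.0 FPKM while the other libraries of that group lay above every other library. Without that library the siCyclin K#1 and siCyclin K#2 groups differed by a log2 of 0.19 (limma adjusted p = 0.0186), where the value over all libraries was -0.14. Its exons share 203 bases with AC017101.1 on the other strand.

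ITGA6, the laminin-binding partner of ITGB4, was at 22.2, 31.9 and 31.3 FPKM with scrambled siRNA, at 23.1, 22.1 and 21.6 with siCyclin K#1, and at 37.2, 26.8 and 26.4 with siCyclin K#2. Each siRNA group overlapped the scrambled libraries, and neither passed the test against scrambled. Without scrambled replicate 1, which was at 22.2 FPKM, the fall with siCyclin K#1 passed, with a log2 fold change of -0.50 (limma adjusted p = 0.0215), as did the difference between the siRNAs (limma adjusted p = 0.0395). The exons of ITGA6 overlap those of 3 antisense genes by 52 to 174 bases. ITGA1, a collagen receptor chain on a row joined with PELO and AC022133.1, ranged from 1.43 to 3.21 FPKM in the scrambled libraries and from 1.29 to 1.89 with siCyclin K#1, and passed only when scrambled replicate 1 was left out (limma adjusted p = 0.0447). Of the 20 members with a mean of at least 1 FPKM, 3 (15.0%: ITGA1, ITGA2 and ITGAV) had a group whose highest library was over 1.5 times its lowest, compared with 19.2% of the 11243 features at that level.

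ITGA5, the α chain of the main fibronectin receptor, had means of 20.8 ± 0.570, 25.3 ± 1.21 and 18.9 ± 0.556 FPKM in the order scrambled, siCyclin K#1, siCyclin K#2. It rose with siCyclin K#1 (log2 fold change 0.28 ± 0.045, limma adjusted p = 0.000908) and fell by 0.14 with siCyclin K#2 (limma adjusted p = 0.0420). The fall was lost without scrambled replicate 1 or 3 or siCyclin K#2 replicate 2 or 3, with an adjusted p of up to 0.123. ITGAE, which pairs with ITGB7 on lymphocytes of the epithelium, went from 3.57 to 2.72 and 2.79 FPKM and fell with both siRNAs, and its exons share 427 bases with HASPIN on the other strand.

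ITGAM, ITGAX and ITGAD, α partners of ITGB2, are neighbours on chromosome 16, with gaps of 22.2 and 10.3 kb between them. ITGAM (chr16:31259990-31332892, plus strand, ENSG00000169896) was at 0.915, 0.815 and 0.675 FPKM with scrambled siRNA, at 2.39, 2.55 and 1.76 with siCyclin K#1, and at 0.824, 0.973 and 0.687 with siCyclin K#2. It rose with siCyclin K#1 (log2 fold change 1.36 ± 0.18, limma adjusted p = 0.000286), while the siCyclin K#2 libraries overlapped the scrambled ones (0.04 ± 0.18). ITGAX went the other way, from 78, 93 and 65 reads in the scrambled libraries to 7, 4 and 2 after siCyclin K#1 and to 14, 18 and 17 after siCyclin K#2. These are means of 0.341, 0.0191 and 0.0712 FPKM, or 5.59% and 20.9% of the scrambled mean. ITGAX passed the filter on low values only through the scrambled libraries and left the tested set without any 1 of them. No p-value is therefore given for it, though it is part of the counts of tested members. ITGAD had at most 3 reads in any library. Of the leukocyte markers 1 was tested, CD14, which went from a mean of 0.909 to 0.582 and 0.744 FPKM, and PTPRC was at or near 0 in all groups.

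ITGAL, the remaining leukocyte α partner of ITGB2, gave 34, 40 and 28 reads in the scrambled libraries, 2, 14 and 15 after siCyclin K#1, and 0, 0 and 14 after siCyclin K#2. The same holds for ITGAL as for ITGAX, and no p-value is given. Its exons share 126 and 223 bases with 2 antisense genes. ITGA4, the α chain of a receptor for fibronectin and VCAM1, rose with siCyclin K#1 from 9, 21 and 10 reads to 66, 62 and 60. It had 27, 34 and 27 reads with siCyclin K#2. ITGA7, a laminin receptor chain of muscle, rose with siCyclin K#1 from 38, 37 and 47 reads to 71, 76 and 65 (limma adjusted p = 0.0294), a call that was lost without scrambled replicate 1 or 2 or siCyclin K#1 replicate 1 or 2. ITGA2B, the platelet chain, went from 9, 12 and 12 reads to 38, 33 and 42 with siCyclin K#1. Its call as a rise was lost in 7 of the 9 fits without 1 library. These left out a scrambled library, a siCyclin K#1 library or siCyclin K#2 replicate 2. Without siCyclin K#2 replicate 3, which had 7 reads beside 41 and 35, ITGA2B passed with siCyclin K#2 as well. ITGA4 and ITGA2B reached 0.1 FPKM in no scrambled library and entered the test only by being high after knockdown. No p-value against scrambled siRNA is therefore given for them, though they are part of the counts. The platelet marker GP1BA was at a mean of 0.221 FPKM with scrambled siRNA and is listed at 0 with both Cyclin K siRNAs. The remaining 7 members (ITGA9, ITGA11, ITGAD, ITGB8, LAMA1, LAMA4 and LAMB4) had 0 to 13 reads per library and were not tested.

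The siRNAs can pair with other mRNAs through bases 2 to 8 of their guide strand, taken here as the strand antisense to the CCNK target, and the members were searched for the matching 7-base site in their longest 3′ untranslated region (GENCODE 29, GRCh38, sense strand only). The site of siCyclin K#1, GTGATAA, was in 3 of the 29 tested members (10.3%), and in 10.6% of the 11406 tested features of a single gene with an annotated 3′ untranslated region. The site of siCyclin K#2, TACAGGT, was in 2 of 29 (6.90%), against 13.2%. The sequences below are all the sites found in the tested members. Capitals mark the 7-base site, and each sequence runs 5′ to 3′ on the strand of the gene.
ITGA2, siCyclin K#1 site, chr5:53091138-53091166, plus strand: gatacttccaaGTGATAAttttatttata
ITGAV, siCyclin K#1 site, chr2:186680008-186680036, plus strand: gagagatttgtGTGATAAaagtattgtat
ITGB6, siCyclin K#1 site, chr2:160100386-160100414, minus strand: gtgttagttaaGTGATAActgtcatttgt
ITGB6, siCyclin K#2 site, chr2:160099969-160099997, minus strand: ctacagcaataTACAGGTtgcaatgctga
LAMC3, siCyclin K#2 site, chr9:131093941-131093969, plus strand: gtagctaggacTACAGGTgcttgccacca
ITGB6 held both sites, and its level was 0.315, 0.277 and 1.11 FPKM in the order scrambled, siCyclin K#1, siCyclin K#2. LAMC3 was at 0.302, 0.350 and 0.268 FPKM and passed no test. A match is a description of letters, and its part in any change was not tested.

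Among the laminin genes 9 of 12 were tested, of which 3 rose and 4 fell with siCyclin K#1 and 2 rose and 4 fell with siCyclin K#2, where 26.8% and 19.8% of all tested genes rose and 18.1% and 15.2% fell. The chains of 1 class did not move together. The summed FPKM of the α chains went from 111 ± 3.27 to 87.0 ± 1.87 after siCyclin K#1 and to 77.2 ± 0.952 after siCyclin K#2 and that of the β chains from 99.5 ± 1.77 to 75.4 ± 1.34 and 78.8 ± 0.374. Knockdown libraries lay below all scrambled libraries for both sums.

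The β chains changed in their proportions. LAMB1, the β chain of the widespread laminins (chr7:107923799-108003255, minus strand, ENSG00000091136), was at 84.5, 86.8 and 85.4 FPKM with scrambled siRNA, at 48.2, 49.96 and 49.5 with siCyclin K#1, and at 59.8, 59.0 and 59.9 with siCyclin K#2. It fell to 57.5% and 69.6% of the scrambled mean (log2 fold changes -0.80 ± 0.026 and -0.52 ± 0.026, limma adjusted p = 8.37e-08 and 1.66e-06). Its exons share 221 bases with AC005046.1 and 70 with DLD, both on the other strand. LAMB2, the β chain of laminins in kidney, nerve and muscle basement membranes (chr3:49121114-49133118, minus strand, ENSG00000172037), was at 6.28, 6.69 and 6.60 FPKM with scrambled siRNA, at 19.8, 20.2 and 20.8 with siCyclin K#1, and at 10.3, 10.3 and 10.8 with siCyclin K#2. It rose to 3.11 and 1.61 times the scrambled mean (log2 fold changes 1.62 ± 0.043 and 0.68 ± 0.043, limma adjusted p = 3.37e-08 and 5.70e-06), and the 3 groups of each gene did not overlap. As a share of the summed β FPKM, LAMB2 made 6.56% ± 0.124 in scrambled libraries, 26.9% ± 0.487 after siCyclin K#1 and 13.3% ± 0.286 after siCyclin K#2, while LAMB1 made 86.0%, 65.2% and 75.6%.

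LAMA3 and LAMB3 code for the α and β chains of the laminin that anchors hemidesmosomes. LAMA3 went from 9.88 ± 0.167 FPKM to 14.6 ± 0.0628 with siCyclin K#1 (log2 fold change 0.56 ± 0.041, limma adjusted p = 6.56e-06) and was at 9.70 ± 0.375 with siCyclin K#2 (-0.03 ± 0.041). LAMB3 was at 7.39 ± 0.472 FPKM in scrambled libraries, 5.95 ± 0.358 after siCyclin K#1 (limma adjusted p = 0.00425) and 8.75 ± 0.302 after siCyclin K#2 (limma adjusted p = 0.0186). The rise of LAMB3 was lost without scrambled replicate 1 or 3 or siCyclin K#2 replicate 2, with an adjusted p of up to 0.0644. With siCyclin K#1 these chains moved in different directions, as LAMA3 rose and LAMB3 fell.

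LAMC1, the γ chain of most laminins (chr1:183023460-183145592, plus strand, ENSG00000135862), was at 135, 133 and 134 FPKM with scrambled siRNA, at 165, 173 and 168 with siCyclin K#1, and at 103, 107 and 111 with siCyclin K#2. The groups did not overlap and moved in opposite directions, with log2 fold changes of 0.33 ± 0.032 and -0.33 ± 0.032 (limma adjusted p = 3.86e-05 and 6.70e-05). LAMA5, the α chain of adult epithelial laminins, was at 97.2, 104 and 101 FPKM with scrambled siRNA, at 70.4, 71.9 and 74.1 with siCyclin K#1, and at 67.6, 66.4 and 67.7 with siCyclin K#2, and fell with both (log2 fold changes -0.48 ± 0.032 and -0.58 ± 0.032, limma adjusted p = 4.40e-06 and 2.81e-06). Its exons share 158 bases with ADRM1 and 118 with LAMA5-AS1, both on the other strand. LAMA2 and LAMC3 stayed at or below 0.381 FPKM and passed no test.

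**Figure D4:**
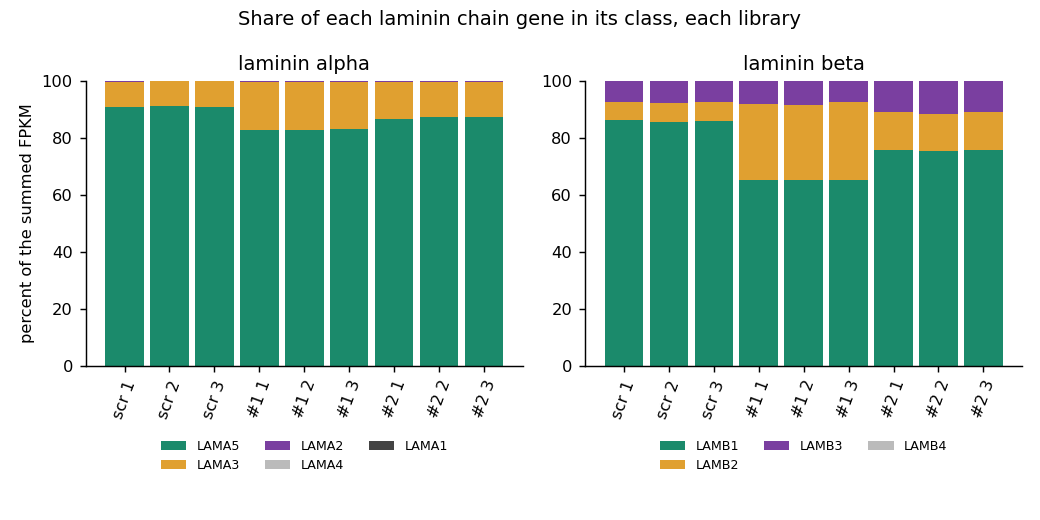
Percent of the summed FPKM of the laminin α and β classes held by each chain gene, with 1 bar per library (scr, scrambled siRNA; #1 and #2, the Cyclin K siRNAs). LAMB2 takes 6.42% to 6.65% of the β class in scrambled libraries, 26.4% to 27.4% after siCyclin K#1 and 13.1% to 13.6% after siCyclin K#2.

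The siRNAs were compared directly in the same fit. With siCyclin K#1, 12 of the 29 members were higher than with siCyclin K#2 and 4 were lower, next to 17.1% higher and 12.3% lower of all tested genes. ITGA10 was higher and ITGB6 lower with siCyclin K#1 by a fold change over 3 (2 members, 1.53% of all genes), at log2 differences of 2.16 ± 0.12 and -1.69 ± 0.19 (limma adjusted p = 5.13e-06 and 0.000248). Without siCyclin K#2 replicate 3 the count was 1. ITGAM, LAMB2, ITGB4, LAMC1 and LAMA3 were also higher with siCyclin K#1, by log2 differences of 1.32, 0.94, 0.76, 0.66 and 0.59, and ITGA3, LAMB3 and LAMB1 were lower by 0.52, 0.55 and 0.28. CCNK differed between them by a log2 of -0.06 ± 0.097 (limma adjusted p = 0.726).

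Genes that work with integrins and laminins were taken from 6 lists with 119 symbols in all, of which 112 were found and 98 tested. Some symbols were aliases of a gene also listed under another symbol, such as CYR61 and CCN1. With siCyclin K#1 57 rose and 22 fell, with a median log2 fold change of 0.45, and with siCyclin K#2 39 rose and 19 fell, with a median of 0.18. Over all tested genes 26.8% and 19.8% rose, 18.1% and 15.2% fell, and the medians were 0.10 and 0.01. After rescaling by median ratios 49 rose and 29 fell with siCyclin K#1. Of the 98 tested list genes 78 had a mean of at least 1 FPKM, and the shares of all genes are not matched for level. The integrin ligands other than laminin had the highest medians of log2 fold change with siCyclin K#1 (1.00), and 18 of the 26 tested rose and 2 fell. With siCyclin K#2 13 rose and 1 fell, with a median of 0.29. THBS1, a matrix protein bound by several integrins, went from 5.60 ± 0.199 to 30.3 ± 0.963 FPKM with siCyclin K#1 and 8.35 ± 1.42 with siCyclin K#2. FBN1, the main protein of microfibrils, went from 1.75 to 8.18 and 4.68 FPKM, and EDIL3, a ligand of ITGAV integrins, from 1.24 to 6.40 and 2.71. TGFB1, whose latent form is activated by ITGAV integrins, went from 45.1 ± 1.28 to 90.0 ± 4.24 and 106 ± 4.82. All 4 rose with each siRNA (limma adjusted p of at most 0.00392).

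The partners of laminin in the basement membrane gave 10 rises and 1 fall among 15 tested genes with siCyclin K#1 (median log2 fold change 0.54). After siCyclin K#2 there were 8 rises and 2 falls (0.32). Of all tested genes, 26.8% rose and 18.1% fell after siCyclin K#1, while 19.8% rose and 15.2% fell after siCyclin K#2. No list was tested as a set against these shares. COL4A1, a chain of the main collagen network of basement membranes, was at 38.8, 37.6 and 39.2 FPKM with scrambled siRNA, at 130, 124 and 132 with siCyclin K#1, and at 91.4, 85.03 and 87.6 with siCyclin K#2. COL4A6 went from 2.35 to 6.24 and 3.997 FPKM, COL4A5 from 5.15 to 10.4 and 6.44, and COL7A1, the anchoring fibril collagen below hemidesmosomes, from 22.8 to 55.7 and 43.4. These 4 rose with each siRNA. In the same libraries the fibroblast marker COL1A1 went from 2.03 ± 0.218 to 14.0 ± 0.572 and 3.19 ± 0.0999 FPKM, with COL1A2 at 0.004 FPKM or less. The cells were of a single line, and the cause of these rises was not tested. In bulk RNA a rise in all cells and a rise in some of them cannot be told apart.

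Of the integrin activators and adhesion adaptors, 20 of 33 rose and 9 fell with siCyclin K#1 (median log2 fold change 0.44). After siCyclin K#2, 13 rose and 8 fell (0.04). The rises made up 26.8% and the falls 18.1% of all tested genes after siCyclin K#1. For siCyclin K#2 these shares were 19.8% and 15.2%. TNS3, which links integrin tails to actin, went from 23.1 ± 0.425 to 60.8 ± 1.91 and 58.9 ± 2.90 FPKM, and TLN2, a talin, from 2.02 to 3.81 and 2.78, and both rose with each siRNA. LPXN, a paxillin relative, fell from 2.48 to 1.28 and 1.34 FPKM, and with siCyclin K#2 the fall was lost without scrambled replicate 1 or 3 or siCyclin K#2 replicate 2 or 3 (limma adjusted p of up to 0.0708). LIMS1, a partner of integrin-linked kinase, rose with siCyclin K#1 to 38.01 ± 0.389 FPKM, from 10.8, 26.2 and 11.6 in the scrambled libraries. With siCyclin K#2 it passed only without scrambled replicate 2, the library at 26.2 FPKM (limma adjusted p = 0.000745).

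**Figure D5:**
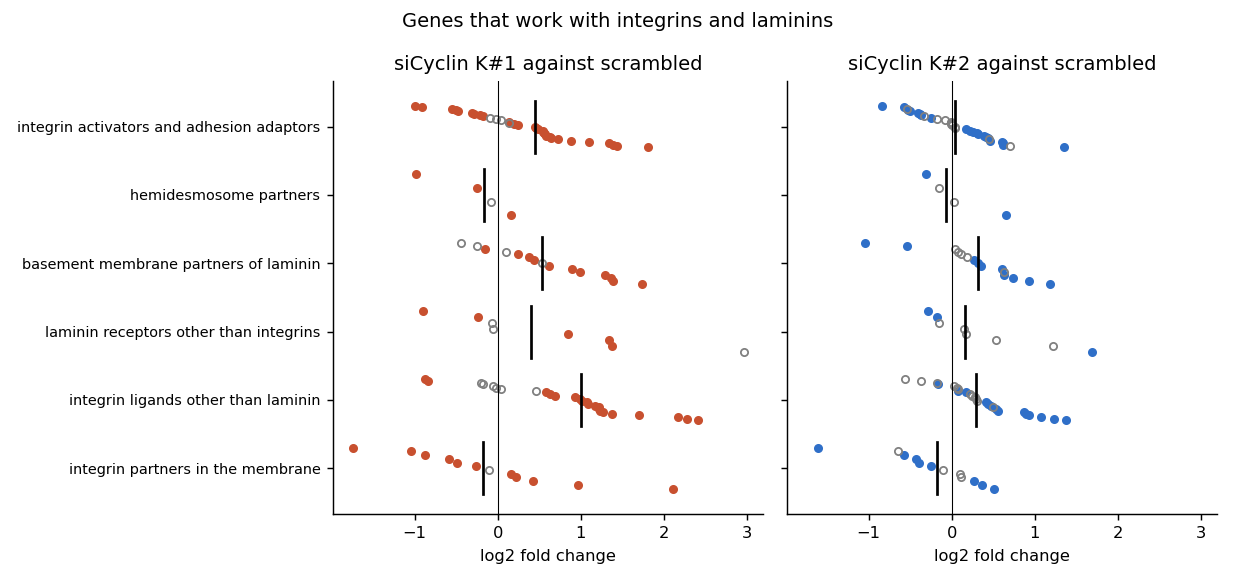
Log2 fold change against scrambled siRNA of the 98 tested genes of the 6 lists, for siCyclin K#1 (left) and siCyclin K#2 (right); filled points passed an adjusted p of 0.05, open grey points did not, and black bars are list medians. The ligands other than laminin have a median of 1.00 with siCyclin K#1 and 0.29 with siCyclin K#2.

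The receptors of laminin that are not integrins gave 3 rises and 2 falls among 8 with siCyclin K#1 (median log2 fold change 0.40). After siCyclin K#2 there were 1 rise and 2 falls (0.16). Among all tested genes 26.8% rose and 18.1% fell after siCyclin K#1. The shares after siCyclin K#2 were 19.8% and 15.2%. SDC4, a syndecan of focal adhesions, rose from 12.7 ± 0.858 to 32.9 ± 0.923 and 41.1 ± 1.69 FPKM. BCAM, a receptor of LAMA5, rose from 19.1 ± 0.715 to 34.4 ± 0.387 FPKM with siCyclin K#1 and fell to 16.8 ± 0.566 with siCyclin K#2 (limma adjusted p = 0.00776). SDC1 rose with siCyclin K#1 from 19.2 to 48.7 FPKM, and was at 13.9, 38.9 and 40.1 with siCyclin K#2, where it passed only without replicate 1, the library at 13.9 FPKM (limma adjusted p = 2.52e-05). SGCB, a sarcoglycan, fell with siCyclin K#1 from 14.4 to 7.64 FPKM, and at 12.9 FPKM with siCyclin K#2 it passed only without siCyclin K#2 replicate 1 (limma adjusted p = 0.0150).

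Of the hemidesmosome partners of ITGB4, PLEC, which links ITGB4 to keratin, rose from 52.3 ± 0.747 to 58.6 ± 1.28 and 82.5 ± 1.55 FPKM, and DST fell from 13.9 to 11.8 and 11.2. The 4 genes of this list gave 1 rise and 2 falls with siCyclin K#1 and 1 rise and 1 fall with siCyclin K#2, with median log2 fold changes of -0.16 and -0.06. The membrane partners of integrins gave 5 rises and 6 falls among 12 with siCyclin K#1. After siCyclin K#2 there were 3 rises and 5 falls, and the median log2 fold change was -0.18 with each siRNA. Beside both lists stand the shares of all tested genes, 26.8% rising and 18.1% falling after siCyclin K#1. For siCyclin K#2 they were 19.8% and 15.2%. CD82, a tetraspanin that binds integrins, was at 11.7, 11.3 and 14.7 FPKM with scrambled siRNA, at 3.19, 3.75 and 4.07 with siCyclin K#1, and at 4.27, 4.62 and 3.33 with siCyclin K#2, and fell with each. CD47, a partner of ITGAV integrins, fell from 21.2 to 14.1 FPKM with each siRNA. PLAUR, the urokinase receptor, fell from 14.8 to 7.12 and 12.5 FPKM, and CD44, a receptor for hyaluronan, from 12.2 to 6.58 and 8.97. The fall of CD44 with siCyclin K#2 was lost without scrambled replicate 1 or siCyclin K#2 replicate 3 (limma adjusted p of up to 0.0669).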

How the data were processed

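Total RNA of A549 cells was sequenced by the authors from both fragment ends (Illumina), and FPKM per feature was deposited for each library, made with StringTie 1.3.3b per the labels. Coordinates are those of GRCh38. The aligner, the annotation release, the filters and the use of strand are not given in the sources used here. Groups and replicate numbers come from the sample labels. Each file lists 56252 rows. Rows that carry 1 reference gene between them were added up (47 features), 25125 rows without a reference gene were left out, and 1344 features join several genes. Reads per library were estimated from the steps of the low FPKM values and GENCODE 29 exon lengths, and 89.7% of the nonzero values under 200 reads came out within 0.05 of a whole read. This depth limits precision for members near 3 reads, taken as the floor, which covers counting error only.

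Differences were assessed for genes with at least 0.1 FPKM in 3 libraries or more, with limma 3.58.1 in R 4.3.3 (lmFit, eBayes with trend) on log2(FPKM + 0.1), with the 3 groups in 1 fit and Benjamini-Hochberg adjustment over all tested genes. The thresholds of fold change over 3 and p under 0.01 follow the study's methods. An exact permutation test of 3 libraries against 3 cannot go below p = 0.1, and none was used. The fit was tested on simulated data. Same-numbered libraries did not deviate together (correlations -0.07 to 0.04 over 11243 genes), so no pairing by number was seen. How the cultures were set up is not given, and these values cannot show it. Replicates were not duplicates (chi-square per degree of freedom of 15.6 to 20.4).

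The members, gene lists and tests were chosen with earlier results of these data known. Values in every library were to be given for members with a mean of at least 1 FPKM, an adjusted p under 0.05 and a fold change over 1.5 with at least 1 siRNA, and other such members by their means. ITGA1, ITGA6, ITGAV, ITGB1, LAMA5 and LAMC1 are given in more detail, as are members below 1 FPKM, chosen after their values were seen. From each list at most 4 genes with a mean of at least 1 FPKM that passed the test were named. They were ranked by the absolute value of the signed log2 fold change averaged over both siRNAs, so opposite changes cancelled. ITGA8 and ITGB3 were not analysed here. Of the 36 members, 1 is counted but not reported here. The alternatives were other pseudocounts, filters, scalings, fits and thresholds, the highest row per gene, loci without a reference gene in the fit, leaving out each library and, added after the data were seen, limma-voom on the estimated reads.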

Additional observations from a re-analysis of the deposited data

Results flagged for a closer look

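The effect of the knockdown differed between siCyclin K#1 and siCyclin K#2, in a direct test in the same limma fit with an adjusted p under 0.05, for 15 of the members given here that passed against scrambled siRNA with at least 1 of them. The comparisons share the scrambled libraries, so the direct difference between the siRNAs is given. On the log2 scale, siCyclin K#1 minus siCyclin K#2 was 2.16 for ITGA10, 1.32 for ITGAM, 0.94 for LAMB2, 0.76 for ITGB4, 0.69 for ITGA4, 0.66 for ITGA7, 0.66 for LAMC1, 0.59 for LAMA3, 0.42 for ITGA5, 0.17 for ITGB5 and 0.10 for LAMA5. It was -1.69 for ITGB6, -0.55 for LAMB3, -0.52 for ITGA3 and -0.28 for LAMB1. The differences of ITGA4, ITGA7 and LAMA5 missed the threshold without 8, 4 and 6 of the 9 libraries in turn, with adjusted p of up to 0.126, 0.0878 and 0.142. For ITGA4 these were all libraries but scrambled replicate 2. ITGA4 is among the 15 through its rise with siCyclin K#1, and it entered the test only by being high after knockdown. For ITGA7 they were siCyclin K#1 and siCyclin K#2 replicates 1 and 2, and for LAMA5 scrambled replicate 3, siCyclin K#1 replicates 2 and 3, and each siCyclin K#2 library. After rescaling by median ratios the differences of ITGB5 (0.10, adjusted p = 0.0918) and LAMA5 (0.03, adjusted p = 0.61) did not pass, and without the trend in eBayes the adjusted p of ITGB5 was 0.0666. Groups of 3 libraries were not tested for single outlying values.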

How the results depend on the processing

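Of 53 calls of single members over the 3 comparisons, 43 passed under each of the 21 alternatives that could be computed for them. The other 10 were lost under at least 1, and none of the 53 turned its direction. The 43 include ITGAX with each siRNA, and the 10 include ITGAL with siCyclin K#2. These members could enter the test only by being high in the scrambled libraries, and no fit without 1 of those could be computed for them. With siCyclin K#1 the 43 also include ITGA4 and the 10 include ITGA2B, which could enter the test only by being high after knockdown. The difference of ITGAV between the siRNAs, which had not passed, reversed from -0.14 to 0.19 without siCyclin K#1 replicate 3, and ranged from -0.31 to 0.19 over the fits that left out 1 library. With siCyclin K#1 the count past a fold change of 3 went from 4 to 2 at a pseudocount of 1 or 0.5 and to 8 at a fold change over 2. It was 3 to 4 over the fits that left out 1 library. The 3 came from the fits without a scrambled library, where ITGAX and ITGAL left the test and 27 members remained. This also enters the other ranges over such fits given below. With siCyclin K#2 it went from 0 to 2 with limma-voom and to 7 at a fold change over 2, with 0 to 1 over the fits without 1 library. Between the siRNAs it went from 2 to 1 at a pseudocount of 1 or 0.5 and at a mean of at least 1 FPKM, with 1 to 2 over the fits without 1 library. The counts at an adjusted p under 0.05 stayed within 1.5 times their value under all alternatives, with 16 to 20, 13 to 18 and 13 to 16 members over the fits without 1 library, in the order siCyclin K#1, siCyclin K#2, direct comparison. No pairing by replicate number is described or was seen, so the replicate block is only an alternative. It gave 18, 16 and 13 members, with 6 calls lost and 0 gained. The planned look at unnamed loci within the members was not run, as those rows carry no coordinates. Depth limits the members below 0.1 FPKM, where a few reads set the value.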
